A study of Saccharomyces cerevisiae with 6 samples.

Results

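The genes described here are the 7 that carry squalene through the first steps of sterol synthesis or regulate those steps: the enzymes ERG1, ERG7, ERG11, NCP1 and ERG24 and the transcription factors UPC2 and ECM22. They were chosen by name from the sterol pathway, and all 7 were found among the 6442 genes listed, and all 7 were among the 5904 that passed the filter on low counts. RNA was sequenced from haploid Saccharomyces cerevisiae of 2 groups, H0 and S3, with 3 libraries each, after 12 h in shaken flasks (250 rpm) at 30 °C. The labels give both groups the same genotype, a strain with the synthetic chromosome synV. H0 was taken as yJBH000 and S3 as yJBH012, the only strains whose transcriptomes the study's methods describe, grown in rich glucose medium. Both carry a carotenoid pathway integrated into the CAN1 locus of synV. S3 additionally went through SCRaMbLE, the Cre-driven rearrangement of synV, and is 1 clone that lacks the segment with VAC8 (YEL013W) and YEL014C. Thus the comparison is between 2 clones, and each library is a sample of one of them. The labels do not say whether the 3 libraries of a group came from separate cultures, so the p-values measure the spread between these libraries.

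In yeast, squalene epoxidase (ERG1) and lanosterol synthase (ERG7) turn linear squalene into lanosterol, the first ring-closed sterol. ERG11, the cytochrome P450 that azole antifungals inhibit, then removes a methyl group from lanosterol with electrons that NCP1 passes on from NADPH, and ERG24 reduces the double bond this leaves. Later enzymes lead through zymosterol to ergosterol, the main sterol of the yeast plasma membrane. UPC2 and ECM22 are related zinc cluster transcription factors that bind sterol regulatory elements in front of sterol genes, and Upc2 is activated when sterol is scarce. Squalene and the carotenoids are both made from farnesyl pyrophosphate.

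The libraries of H0 held 23340054 to 25333938 counts and those of S3 17675299 to 21568860, so the member with the fewest counts, UPC2, still had 1149 in its lowest library. VAC8 had 2216 to 2532 counts in the H0 libraries and 0, 0 and 1 in the S3 libraries, which fits the deletion described for yJBH012. The cells were checked for mating type, and the receptor gene of a cells, STE2, stood at 539 CPM or more while the alpha factor gene MF(ALPHA)1 reached at most 0.827 CPM in any library. The other a-specific genes, MFA1, MFA2, STE6 and BAR1, had lowest values of 188, 279, 233 and 122 CPM. The other alpha-specific genes were not absent: MF(ALPHA)2, STE3 and SAG1 had highest values of 12.1, 11.5 and 56.6 CPM. Libraries were compared as CPM, read counts brought to a common library size with the TMM factors of edgeR. The median difference (log2, S3 over H0) across the tested genes was -0.01 on this scale and -0.35 when only total counts were used. H0 replicate 1 stood apart from the other libraries of its group on the second principal component (16.4 against -7.53 and -9.33). It was the lowest H0 library for 6 of the 7 members, against 46.6% of all genes tested.

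The regulators are known to bind the letters TCGTATA, the core of the sterol regulatory element, and the related letters TCGTTTA of anaerobic genes. Both were searched on both strands of the 500 bases before each start codon in the R64 genome of RefSeq, where the genes were looked up by their NCBI identifiers; the deposited tables name no build and hold no coordinates. Among the members, TCGTATA occurred only before ERG1. TCGTTTA occurred before ERG7, NCP1, ERG24, UPC2 and ECM22, and neither occurred before ERG11. Of all 6000 nuclear protein-coding genes, 7.0% had TCGTATA and 8.80% had TCGTTTA in this window. The sites are printed in the direction of the gene with every match of either motif in capitals, where TAAACGA is TCGTTTA read on the other strand. ERG25, ERG2 and ERG3, later genes of the pathway with TCGTATA, are added for comparison, ERG3 with only 1 of its 2 copies of TCGTATA. The pathway genes ERG13, ERG8, ERG28 and ERG6 also have TCGTATA in this window and are not printed. A match is a description of the sequence and says nothing on binding in these cells.
ERG1, chrVII:848773-848832, minus strand: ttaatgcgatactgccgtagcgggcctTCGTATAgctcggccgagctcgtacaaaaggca
ERG7, chrVIII:238879-238938, plus strand: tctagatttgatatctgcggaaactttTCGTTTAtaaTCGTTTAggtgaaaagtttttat
NCP1, chrVIII:190285-190344, plus strand: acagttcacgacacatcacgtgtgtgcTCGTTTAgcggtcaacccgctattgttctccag
ERG24, chrXIV:110654-110713, minus strand: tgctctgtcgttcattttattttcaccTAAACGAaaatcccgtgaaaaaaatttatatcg
UPC2, chrIV:889365-889424, plus strand: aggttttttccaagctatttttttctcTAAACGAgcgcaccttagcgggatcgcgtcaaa
ECM22, chrXII:602799-602858, minus strand: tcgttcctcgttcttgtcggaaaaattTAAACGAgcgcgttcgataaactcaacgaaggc
ECM22, chrXII:602479-602505, minus strand: ggtttatattTCGTTTAtccatagatc
ERG25, chrVII:610064-610123, plus strand: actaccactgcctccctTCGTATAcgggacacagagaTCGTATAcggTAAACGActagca
ERG2, chrXIII:667325-667384, plus strand: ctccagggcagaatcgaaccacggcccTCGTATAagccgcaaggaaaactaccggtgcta
ERG3, chrXII:253548-253607, plus strand: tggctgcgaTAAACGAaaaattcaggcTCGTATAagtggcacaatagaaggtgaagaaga

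The site of ERG1 begins 382 bases before the start codon, near the end of the neighbouring gene ATF2, which lies 405 bases away. ERG7 carries 2 copies of TCGTTTA, which begin 192 and 182 bases before its start codon. ECM22 also has 2, at 368 and 32 bases. UPC2, whose protein is known to act on its own gene, has 1 at 359 bases on the other strand. The consensus site of Hap1 was found before 0 of the 7 genes (0.35% of all genes), and the Rox1 core ATTGTT before ERG1, NCP1 and ECM22 (48.9% of all genes).

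Across the members the strains differed in both directions. UPC2, ERG11, ECM22 and ERG24 were higher in S3, ERG1 was lower, and ERG7 and NCP1 did not pass the test. Thus 4 of 7 members rose and 1 fell at an adjusted p under 0.05 (quasi-likelihood test of edgeR, adjusted by Benjamini and Hochberg over all 5904 genes), where 34.2% of all genes tested rose, 36.2% fell and 70.5% changed in either direction. In 5 of the 7 genes the CPM of the 3 S3 libraries did not overlap that of the 3 H0 libraries, as in 75.5% of all genes tested. Of these, 4 were higher and 1 lower in S3, against 36.9% and 38.6% of all genes tested. The shares that changed or did not overlap lie near those of the whole table. Without H0 replicate 1, which stood apart, 4 members rose and 3 fell. In that fit 2270 of all genes tested rose and 2360 fell, more than the 2022 and 2138 with all libraries. With all libraries the median log2 fold change of the 7 genes was 0.46.

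**Figure D1:**
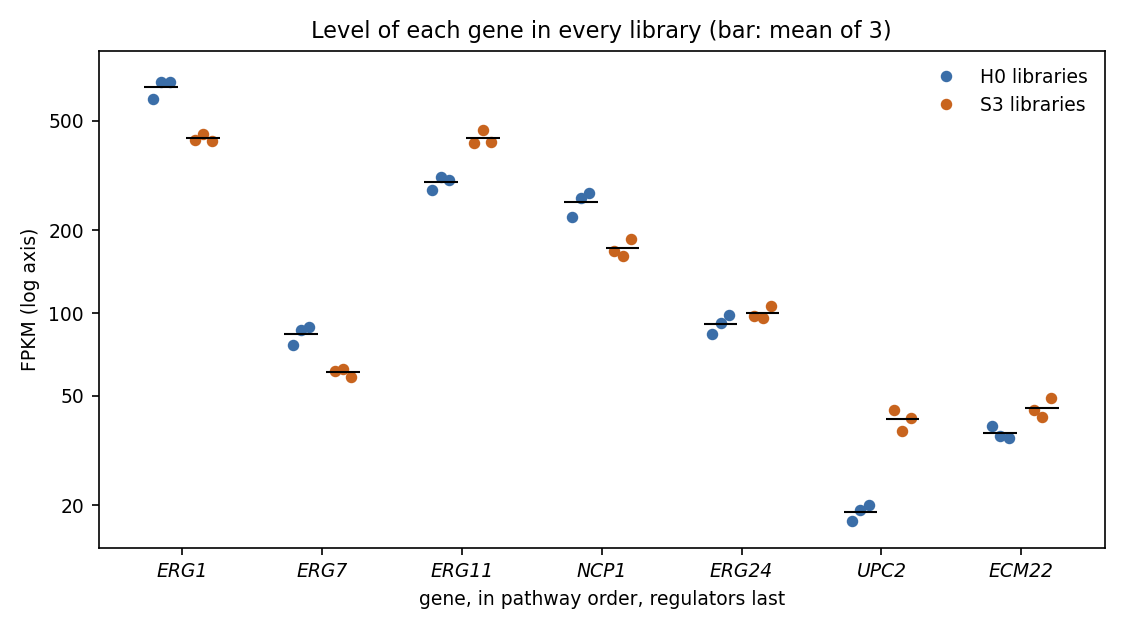
FPKM of each gene (log axis) in the 3 H0 and the 3 S3 libraries, with a bar at the mean of 3. ERG1 and ERG11, at means of 664 and 299 in H0, lie together at 433 and 433 in S3, and UPC2 moves up from 18.9 to 41.0, next to ECM22 at 45.1. FPKM is scaled by total counts, on which ERG7 and NCP1 do not overlap between the groups and ERG24 does, unlike in CPM.

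ERG1 (YGR175C) encodes squalene epoxidase, the oxygen-requiring enzyme that commits squalene to sterols. Its level was 789.6, 925 and 932 CPM in H0 replicates 1, 2 and 3 and 714, 748 and 713 CPM in those of S3. All S3 libraries lay below all H0 libraries, and H0 replicate 1 was the nearest to them. The mean fell from 882 ± 80.1 to 725 ± 19.5 CPM (SD, n = 3 per group), a log2 fold change of -0.28 ± 0.08 (SE) (edgeR, adjusted p = 0.0176). These are bulk cultures, in which fewer cells expressing a gene and less RNA per cell cannot be told apart. The call was near the threshold and did not hold in every fit that left out 1 library, while the log2 fold change stayed between -0.36 and -0.24. Without H0 replicate 2, H0 replicate 3, S3 replicate 1 or S3 replicate 3 the adjusted p was 0.0681, 0.0632, 0.0609 and 0.0600, while without H0 replicate 1 the log2 fold change was -0.36 and passed.

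ERG7 (YHR072W), lanosterol synthase, closes the rings of oxidosqualene. It measured 147, 171 and 176 CPM in the H0 libraries and 152, 153 and 146 CPM in the S3 libraries. The groups overlapped, because H0 replicate 1 lay among the S3 libraries. The log2 fold change of -0.13 had a 95% interval from -0.31 to 0.04 (edgeR, adjusted p = 0.151). Without H0 replicate 1 it was -0.21 and passed (adjusted p = 0.00101), and with total-count scaling it was -0.47.

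ERG11 (YHR007C) encodes lanosterol demethylase, the pathway's first cytochrome P450. Its CPM was 391, 445 and 436 in the H0 libraries against 742, 823 and 756 in the S3 libraries. No H0 library came near an S3 library. The mean rose from 424 ± 28.8 to 774 ± 43.4 CPM (SD, n = 3 per group), that is 1.82-fold, with a log2 fold change of 0.87 ± 0.08 (SE) (edgeR, adjusted p = 5.25e-05). This is above the log2 fold change of 87.1% of the genes tested. Over the alternative settings the value ran from 0.53 to 0.90 and always passed.

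NCP1 (YHR042W) is the NADPH-cytochrome P450 reductase that supplies ERG11 and other microsomal enzymes, ERG1 included, with electrons. It stood at 408, 485 and 511 CPM in the H0 libraries and at 392, 373 and 438 CPM in the S3 libraries. S3 replicate 3 exceeded H0 replicate 1, so the groups overlapped. The difference was a log2 fold change of -0.22 with a 95% interval from -0.46 to 0.02 (edgeR, adjusted p = 0.0857). It passed without H0 replicate 1 (-0.31, adjusted p = 0.00166), with upper-quartile factors (-0.26, adjusted p = 0.0444) and with total-count scaling (-0.56).

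ERG24 (YNL280C) encodes the sterol reductase that acts on the product of ERG11. Its CPM was 97.3, 108 and 117 in the H0 libraries and 144, 140.5 and 158 in the S3 libraries. Every S3 library was above every H0 library. The mean went from 107 ± 9.71 to 148 ± 9.30 CPM (SD, n = 3 per group), a log2 fold change of 0.46 ± 0.08 (SE) (edgeR, adjusted p = 0.00154). With total-count scaling the value was 0.13 and did not pass (adjusted p = 0.158). Relative to the median of all genes it ran from 0.40 to 0.53 under every setting.

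UPC2 (YDR213W) encodes the sterol-sensing activator. It was the member with the largest change, from 42.3, 47.1 and 49.2 CPM in the H0 libraries to 137, 114 and 129 CPM in the S3 libraries. The lowest S3 library held more than any H0 library by a wide margin. The mean rose from 46.2 ± 3.58 to 126 ± 11.5 CPM (SD, n = 3 per group), 2.73-fold, and the log2 fold change was 1.45 ± 0.09 (SE) (edgeR, adjusted p = 1.05e-05). This exceeded the log2 fold change of 94.5% of the genes tested. Over all alternatives it ran from 1.08 to 1.53 and always passed.

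ECM22 (YLR228C), the paralog of UPC2, is known as the activator that prevails under normal sterol supply. It was at 83.6, 78.3 and 77.2 CPM in the H0 libraries and at 122, 114 and 136 CPM in the S3 libraries. Here H0 replicate 1 was the highest of its group, unlike in the other 6 genes, and the groups still did not overlap. The mean rose from 79.7 ± 3.40 to 124 ± 11.2 CPM (SD, n = 3 per group), 1.55-fold, with a log2 fold change of 0.64 ± 0.08 (SE) (edgeR, adjusted p = 1.96e-04). The value was 0.30 with total-count scaling and passed under all alternatives. UPC2 and ECM22 share 66.7% of 978 aligned bases, and no member overlaps another annotated gene.

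The order of the members by level was compared per length, as FPKM, which divides a count by gene length and library total. In H0 the order was ERG1, ERG11, NCP1, ERG24, ERG7, ECM22 and UPC2, and all neighbours were apart over the 3 libraries except ERG24 and ERG7. In S3 the same order held, but other neighbours met. ERG1 and ERG11 were at 433 ± 14.6 and 433 ± 27 FPKM (SD, n = 3) with overlapping ranges, and ECM22 and UPC2 at 45.1 ± 3.78 and 41.0 ± 3.54 FPKM. By contrast, ERG24 and ERG7 separated, at 99.8 ± 5.66 and 60.9 ± 2.04 FPKM. The rank of a gene among all 6442 listed genes shows the same movement. ERG11 ranked 739th to 816th by FPKM in the H0 libraries and 425th to 475th in the S3 libraries, while ERG1 went from ranks of 328 to 379 to ranks of 438 to 466. The rank of UPC2 was 4872 to 5077 in H0 and 3181 to 3555 in S3.

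A ratio of 2 genes within a library does not depend on how the libraries are scaled to each other, so all 21 pairs of members were examined. In 17 pairs the FPKM ratios of the 3 S3 libraries did not overlap those of the 3 H0 libraries, where 75.4% of all pairs of tested genes were apart in this way. The exact permutation test of 3 libraries against 3 (two-sided) cannot fall below 0.1, and these 17 pairs reached it (adjusted p = 0.124 over the 21 pairs). Thus none passes a threshold of 0.05, and the ratios are given as measurements. The overlapping pairs were ERG1/NCP1, ERG7/NCP1, ERG11/ECM22 and ERG24/ECM22.

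ERG1 to ERG11, the epoxidase against the demethylase, had a log2 ratio of 1.11, 1.15 and 1.19 in the H0 libraries and of 0.04, -0.04 and 0.01 in the S3 libraries. ERG1 transcripts were thus 2.22 times those of ERG11 per length in H0 and close to them in S3, at a ratio of 1.0. The difference of -1.15 stayed between -1.17 and -1.12 over the alternatives. ERG11 to NCP1, the P450 against its reductase, went from log2 ratios of 0.32, 0.26 and 0.15 to 1.30, 1.52 and 1.17, which takes the ratio from 1.2 to 2.5. The ratios among NCP1 and the early enzymes ERG1 and ERG7 differed less between the groups. ERG1/ERG7 still differed by -0.15 without overlap, with log2 ratios of 2.98, 2.99 and 2.96 in H0 and 2.80, 2.84 and 2.85 in S3. The log2 ratio ERG1/NCP1 differed by -0.06 (exact permutation p = 0.6, two-sided, n = 3 per group) and ERG7/NCP1 by 0.09 (exact permutation p = 0.4, two-sided), the former changing sign without S3 replicate 3 (0.02).

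**Figure D2:**
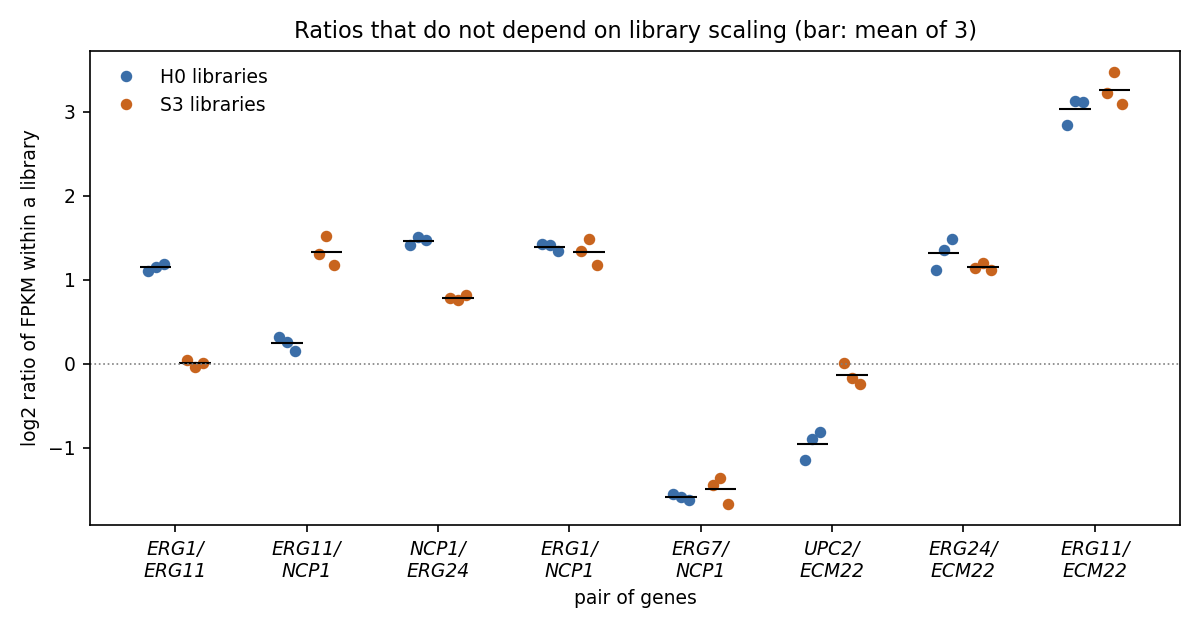
Log2 ratio of the FPKM of 2 genes within each library for 8 pairs, with a bar at the mean of 3. ERG1/ERG11 goes from a mean of 1.15 in H0 to 0.00 in S3, ERG11/NCP1 from 0.24 to 1.33 and UPC2/ECM22 from -0.95 to -0.14, while the points of ERG1/NCP1 and ERG7/NCP1 overlap.

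The paralogs were compared in the same way. UPC2 to ECM22 had log2 ratios of -1.15, -0.90 and -0.81 in the H0 libraries and of 0.00, -0.17 and -0.25 in the S3 libraries. Hence UPC2 stood at 0.516 of ECM22 per length in H0 and at 0.909 in S3. Of the FPKM summed over the 5 enzymes, ERG11 held 21.5% ± 0.61 in H0 and 36.1% ± 1.33 in S3 (SD, n = 3), and ERG1 held 47.7% ± 0.23 and 36.1% ± 0.62. NCP1 went from 18.2% ± 0.54 to 14.4% ± 1.27 and ERG24 from 6.58% ± 0.21 to 8.34% ± 0.57. The sum itself was 1391 ± 108 FPKM in H0 and 1198 ± 33.1 FPKM in S3, on a scale set by total counts.

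The rest of the pathway is given by lists of enzymes before and after these steps. Of the 10 genes from acetyl-CoA to squalene, 4 rose, 5 fell and ERG8 did not pass (median log2 fold change -0.07). Of all genes tested, 34.2% rose and 36.2% fell. The step just before the members, squalene synthase (ERG9), fell like ERG1, with log2 fold changes of -0.38 (SE 0.06) and -0.28. Of the 10 genes after ERG24, 8 rose and 0 fell, with a median log2 fold change of 0.60, where 34.2% of all genes tested rose. With total-count or FPKM scaling, 4 late genes rose and 2 fell, and 2 of the early genes rose and 6 fell, ERG8 among them. With total-count scaling, 1144 of the 5904 genes tested rose and 3401 fell. In edgeR, 1 of the late genes, ERG26, was lower at an unadjusted p under 0.05 (-0.18, adjusted p = 0.0577). DESeq2 and limma-voom called 0 lower. ERG26 passed as a decrease with the replicate block, with upper-quartile factors, with total-count or FPKM scaling and without H0 replicate 1. The values of all genes are relative to a median of -0.01 over the 5904 genes tested.

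After ERG24 come the genes that remove further methyl groups, of which ERG25, the methyl oxidase, had a log2 fold change of 0.58 and ERG27, the keto reductase, of 0.78. ERG6, the methyltransferase that acts on zymosterol, rose by 0.35. With total-count scaling ERG25 was 0.245 (edgeR, adjusted p = 0.0668) and ERG6 0.0193 (edgeR, adjusted p = 0.804), and neither passed. The largest increases were those of ERG2, the sterol isomerase (1.60, SE 0.18), ERG3, the desaturase (1.40, SE 0.14), and ERG4, the last reductase (1.25, SE 0.12). ERG5, the pathway's other P450, which also takes electrons from NCP1, stood at -0.02 (edgeR, adjusted p = 0.797). With total-count scaling ERG5 was -0.353 and passed as a decrease (edgeR, adjusted p = 0.000918), while ERG11 stayed higher. H0 replicate 1 was the lowest H0 library for all 10 of these genes.

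**Figure D3:**
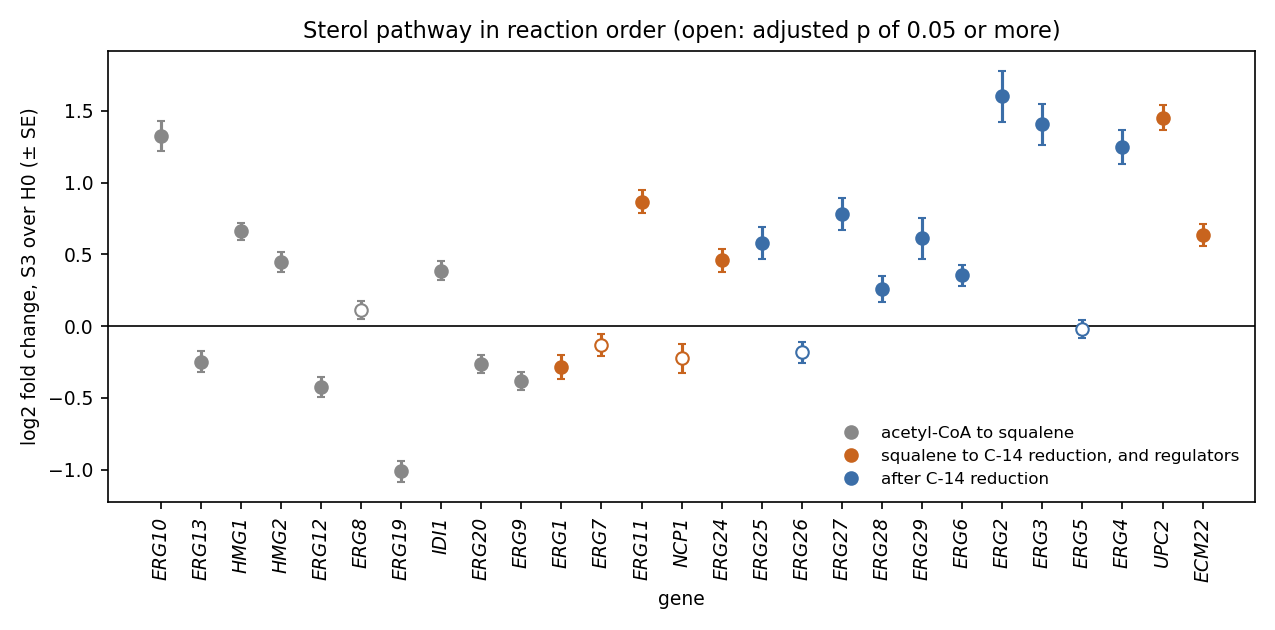
Log2 fold change of S3 over H0 with its standard error, in reaction order from ERG10 to ERG4 and with the regulators last; open points did not pass an adjusted p of 0.05. From ERG20 to ERG7 the points lie between -0.38 and -0.13, ERG11 is at 0.87, and 8 of the 10 genes after ERG24 are filled and above 0.

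Letters of the sterol regulatory element were also counted in front of these genes. TCGTATA stood before 2 of the 10 early genes (ERG13 and ERG8) and before 5 of the 10 late genes (ERG25, ERG28, ERG6, ERG2 and ERG3), against 1 of the 7 members. Of these 8 genes, the 5 late ones were higher in S3, ERG1 and ERG13 were lower and ERG8 did not pass. With total-count scaling ERG25 and ERG6 lost their call, ERG28 turned to -0.074 and ERG8 passed as a decrease (-0.222, edgeR, adjusted p = 0.00739). ERG28 also lost its call with upper-quartile factors, with the length trend removed and without H0 replicate 2 or 3 or S3 replicate 3. ERG13 lost its call without H0 replicate 2 or 3 or any 1 S3 replicate (edgeR, adjusted p from 0.0501 to 0.0683). UPC2, ERG11, ECM22 and ERG24, which rose, do not have TCGTATA in this window. Of the late genes without it, ERG27 (0.78), ERG29 (0.61) and ERG4 (1.25) rose, and ERG26 and ERG5 did not pass. With total-count scaling ERG24 and ERG29 lost their call. TCGTTTA stood before 5 of the 10 early and 8 of the 10 late genes, and 5 of 7 members.

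The genes of proteins that work beside ERG11 and NCP1 went both ways. MCR1, a mitochondrial cytochrome b5 reductase linked to sterol synthesis, had 248, 188 and 191 CPM in the H0 libraries and 569, 611 and 643 CPM in the S3 libraries, a log2 fold change of 1.54 (SE 0.12). CBR1, the microsomal cytochrome b5 reductase, fell by 0.43 on the log2 scale, and CYB5, cytochrome b5 itself, stood at -0.10 (edgeR, adjusted p = 0.426). CYB5 passed as a decrease without H0 replicate 1 (-0.211, edgeR, adjusted p = 0.0109) and with total-count scaling (-0.433). DAP1, a heme-binding protein that stabilises Erg11, had 176, 165 and 170.2 CPM in H0 and 90.8, 95.5 and 104 CPM in S3, a log2 fold change of -0.82 (SE 0.06). Therefore DAP1 and ERG11 moved in opposite directions, in all 3 libraries of each group.

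Other transcription factors known to act on sterol genes were set beside UPC2 and ECM22. HAP1, the heme-dependent activator, rose from 229, 229.6 and 241 CPM in H0 to 435, 405 and 465 CPM in S3, a log2 fold change of 0.90 (SE 0.07). The repressor genes ROX1 (-0.19) and MOT3 (-0.31) were lower with adjusted p of 0.0250 and 0.0265. SUT1, which promotes sterol uptake, fell by 0.80 on the log2 scale. ROX1 and MOT3 each lost their call in 4 of the 6 fits that left out 1 library, ROX1 without H0 replicate 2 or 3 or S3 replicate 1 or 2, and MOT3 without H0 replicate 2 or 3 or S3 replicate 1 or 3.

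For each member, the genes with the most similar profile were found by the root mean square difference of mean-centred log2 CPM over the 6 libraries, among 5164 well-counted genes. UPC2 was nearest to HIP1 (0.05), RPL34B (0.05) and ADE12 (0.06), and ECM22 to STE18 (0.02), BUD7 (0.04) and ASI1 (0.04). ERG11 was nearest to VBA4 (0.03), PSE1 (0.04) and PEX6 (0.05), and ERG24 to CRR1, ISC10 and ERV1 (each 0.04). For ERG1 the nearest were PHO13 (0.01), PAM16 (0.02) and PUS4 (0.03), for ERG7 GET4, HUA2 and TKL1 (each 0.02), and for NCP1 TRI1, MDL1 and RNH201 (each 0.05). None of these 21 genes is in the sterol lists. The members themselves were left out of the ranking. Among the genes from acetyl-CoA to squalene and those after ERG24, the closest was ERG13 at rank 12 for NCP1 and rank 18 for ERG1. It was ERG6 at rank 25 for ERG24, ERG10 at rank 51 for UPC2 and HMG1 at rank 112 for ECM22. For ERG7 it was ERG26 at rank 113, and for ERG11 it was ERG27 at rank 171. The other sterol lists were not searched for the closest gene. A profile over 6 libraries in 2 groups is mainly the strain difference, so many genes share it.

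**Figure D4:**
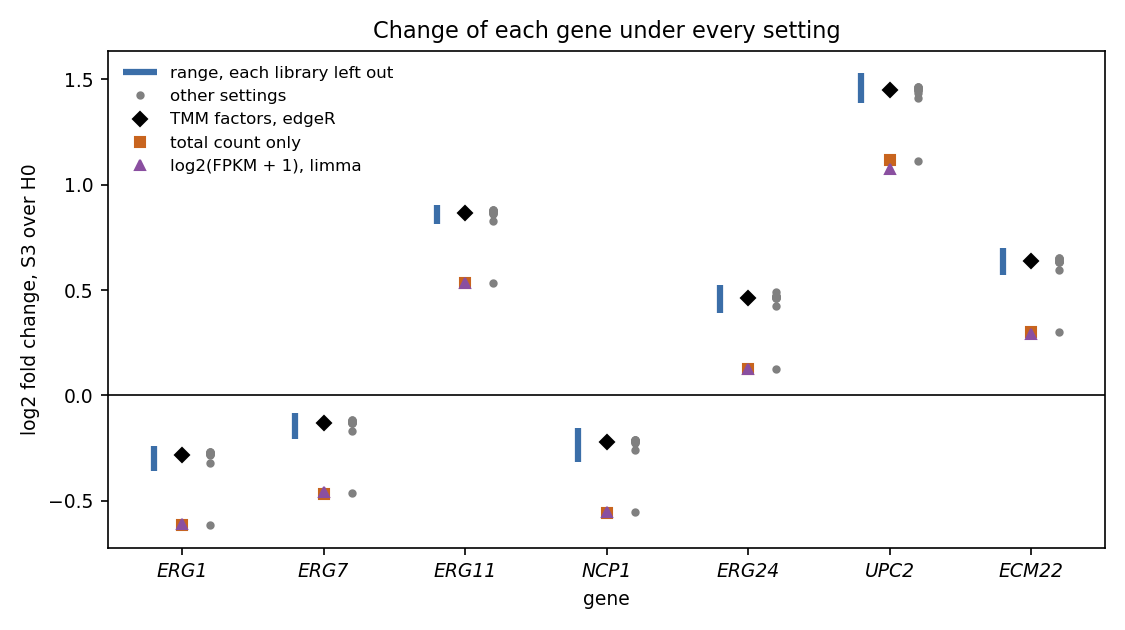
Log2 fold change of S3 over H0 for each gene under TMM factors, under total-count and FPKM scaling, under the other settings and as the range when each library is left out. Total-count scaling moves all 7 genes down by a like amount, to 0.13 for ERG24 and -0.62 for ERG1, and 0 of the 7 genes changes direction.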

How the data were processed

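Total RNA was sequenced by Illumina in 3 libraries of H0 and 3 of S3. The authors deposited raw read counts per gene and FPKM made from the same counts. The submitters' processing notes list HTSeq 0.6.1 and DESeq 1.18.0. The aligner, build and use of strand are not given in the sources used here. Counts divided by FPKM and library total gave the R64 exon length (within 0.5 bases) for 99.9% of genes.

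Counts were tested in R 4.3.3 using the quasi-likelihood functions glmQLFit and glmQLFTest of edgeR 4.0.16, after filterByExpr and TMM scaling. P-values were adjusted by Benjamini and Hochberg across 5904 genes, and those under 0.05 passed. Ratios of members used FPKM and an exact permutation test (scipy 1.17.1). Similar genes were sought with BLAST 2.17.0. The fit was tested on simulated data. Alternatives were DESeq2 1.42.0, limma 3.58.1 (voom, log2(FPKM + 1), log2(FPKM + 0.1)), other factors and filters, a replicate block, a length correction (loess span 0.4) and each library left out. Chi-square per degree of freedom between replicates was at least 7.13, so no library was a duplicate.

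The members and lists were chosen with earlier results of these data known. Genes named are the members, the lists, VAC8 and YEL014C, and the 3 nearest genes of each member (mean log2 CPM 4 or more). ATF2 is named besides, for its position next to ERG1. The promoter window of 500 bases was chosen after the reference was seen.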

Additional observations from a re-analysis of the deposited data

How the results depend on the processing

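UPC2, ERG11 and ECM22 kept their direction and passed under all 19 alternatives. The other calls moved with scaling. Under total count, log2(FPKM + 1) and log2(FPKM + 0.1), ERG24 was 0.13, 0.13 and 0.13 and no longer passed, ERG7 was -0.47, -0.46 and -0.46 and NCP1 -0.56, -0.55 and -0.55, and both passed, so that 3, 3 and 3 members were lower. Genes called higher then numbered 1144, 1147 and 1143 and genes called lower 3401, 3383 and 3382, against 2022 and 2138. Higher genes were 2 of the early and 4 of the late list each time, with 6 early and 2 late genes lower. ERG8 (-0.22, -0.22, -0.22), ERG28 (-0.074, -0.080, -0.080) and PDR11 (-0.040, -0.035, -0.037) changed sign, and of these ERG8 passed as a decrease. With upper-quartile factors NCP1 (-0.26) also passed, giving 2 lower members and 1 lower late gene. At an adjusted p under 0.01 ERG1 (-0.28) was lost, leaving 0 lower members (1 at an unadjusted p under 0.05). The cause of these shifts, beyond the change of scale, was not tested.

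With each library left out, ERG1 ran from -0.36 to -0.24, ERG7 from -0.21 to -0.084 and NCP1 from -0.31 to -0.16, the number of lower members from 0 to 3 and of lower late genes from 0 to 1. ERG5 ran from -0.044 to 0.033 (0.0030 without H0 replicate 2, 0.033 without S3 replicate 1), and the log2 ratio ERG1/NCP1 from -0.131 to 0.018 (without S3 replicate 3). Replicate numbers did not pair the libraries: deviations of same-numbered libraries correlated at -0.01, 0.08 and 0.08, and not every library correlated best with its own number. The replicate block gave 1950 higher and 2048 lower genes, ERG1 at -0.28 and 1 lower late gene (ERG26). With at least 1149 counts in every library, depth limited none of the members.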

Other observations

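Genes of sterol uptake and of the anaerobic cell wall, a group that holds known targets of Upc2, were also examined, and 7 of 8 passed the filter on low counts. AUS1 and PDR11, the transporters that import sterol when oxygen is lacking, were higher in S3, by 0.70 ± 0.12 and 0.30 ± 0.07 on the log2 scale (SE), the latter turning to -0.04 with total-count scaling. AUS1 had 21.6, 24.4 and 29.8 CPM in the H0 libraries and 39.3, 40.4 and 43.5 CPM in the S3 libraries. Among the mannoprotein genes DAN4 rose by 0.54, a call lost on log2(FPKM + 1), at 0.188. By contrast, TIR2 and TIR3 fell by 0.93 and 0.65 on the log2 scale. DAN1, at 2.83, 3.25 and 5.16 CPM in H0 and 1.56, 1.34 and 2.11 CPM in S3, fell by 1.17. TIR4 rose by 0.38 (edgeR, adjusted p = 0.0448), a call lost with total-count scaling and in 4 of the 6 fits that left out 1 library (without H0 replicate 1 or 2 or S3 replicate 2 or 3). TIR1 had at most 3 counts in any library and was not tested. Of the 7 genes tested 4 rose and 3 fell, where 34.2% of all genes tested rose and 36.2% fell. With total-count scaling 2 rose and 3 fell, against 1144 and 3401 of all 5904 genes tested. On either FPKM scale 1 rose, against 1147 of all genes on log2(FPKM + 1) and 1143 on log2(FPKM + 0.1).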
